A study of Saccharomyces cerevisiae with 60 samples.

Results

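M13 is one of 9 strains of the budding yeast Saccharomyces cerevisiae whose RNA was measured during exponential growth in medium with copper sulfate. The 3 arrays labelled as M13 in copper sulfate medium were chosen by their titles, out of 60 arrays in all, and set against the 24 copper arrays of M14, M22, M32, M34, M5, M8, S288C and YPS163. As background that the labels do not give, S288C is a laboratory strain, YPS163 came from an oak, and vineyards are the known source of strains with M numbers. Of the 60 arrays, 54 compared the RNA of a strain, in one dye, with a reference pool in the other dye. The pool was made from the RNA of all 9 strains grown in the same medium. The other 6 arrays, labelled as reference in rich medium or copper sulfate, held no single strain and were not used in the comparisons. Each strain was also measured on 3 arrays in rich medium, and M13 against the other strains there gave the same measure from other arrays. Both comparisons came from the same fit, so they share the spread of each gene and its channel effect. No copper concentration is given in the sources used here. Since the labels do not say whether replicates were separate cultures, p-values measure only how far these samples spread, and that spread may be technical.

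Copper is an essential metal and a poison. Yeast takes it up through plasma membrane transporters after surface reductases have reduced it, hands it to cytochrome oxidase and superoxide dismutase, and binds the excess in metallothionein, encoded by the CUP1 genes. The respiratory chain, in which cytochrome oxidase is the terminal enzyme, is assembled from proteins of the nucleus and of the mitochondrial genome, and its nuclear genes are known targets of the HAP transcription factors. Ty elements are retrotransposons whose number and position differ between yeast strains.

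Values are log2 ratios of strain to pool, centred on the median of each array. A difference is the fitted mean of M13 minus the mean of the other 8 strains, with its standard error (SE), from a limma model of all 54 strain arrays with 18 group means and an effect of the channel that held the strain. A gene passed the test where its p, adjusted by the Benjamini-Hochberg method over 5524 genes, was under 0.05. The direction of the deposited ratios is inferred, not stated. Across the 200 rows that varied most, the linear ratios of 9 strains to their pool should average 1, and the median absolute log2 of that mean was 0.11 in copper as used here and 0.38 with the sign turned. Of 40 pairs of an M13 copper array with a copper array of another strain in the same channel order, 1 had a correlation under -0.3 (r = -0.33 across genes), and none did once spot position had been removed with a running median. The direction is therefore not settled by the labels, and with the sign turned every gene given here as higher in M13 would be lower and the reverse.

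The 3 M13 arrays did not resemble each other over all genes. Their pairwise correlations across genes were 0.32, -0.16 and 0.22. Spot position held 62.3% of the variance of replicate 3 against 18.5% and 17.4% for replicates 1 and 2. The spot layout used here and below is inferred from the row order, not given in the labels. Over the 90 genes that differed among strains in rich medium, each M13 copper array nonetheless correlated best with the M13 mean of the rich arrays, at r = 0.90, 0.81 and 0.84, the next best strain reaching 0.33. Genes are not independent replicates, so these values describe the arrays. Median differences of the 16 nuclear chromosomes lay between -0.06 and 0.01, and no chromosome stood apart. The number of arrays limits the precision.

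In copper, 20 of 5524 genes (0.362%) passed the test between M13 and the other strains. Of these, 15 were higher in M13 (0.272%) and 5 were lower (0.0905%). With arrays scaled to equal spread the split was 32 higher and 19 lower. At an unadjusted p under 0.05 there were 155 genes, where uniform p-values would give 276.2. The higher genes were MRH1, 11 reading frames of Ty elements, GUT2, PDR15 and CYC1, and the lower ones were PHO84, ATP8, MET6, ATP6 and YLR179C. M13 had the highest mean of the 9 strains in 8 of the 15 higher genes and the lowest in 2 of the 5 lower ones, PHO84 and MET6. Fewer genes passed with 1 array of M13 left out. Without replicate 1 of M13, 4 genes passed (PHO84, MRH1, YLR179C and YJR027W), without replicate 2 there were 7 and without replicate 3 there were 14. Without replicate 1 of every strain, which were the copper arrays with the strain in channel 2, 0 genes passed in limma and 95 had an unadjusted p under 0.05.

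**Figure D1:**
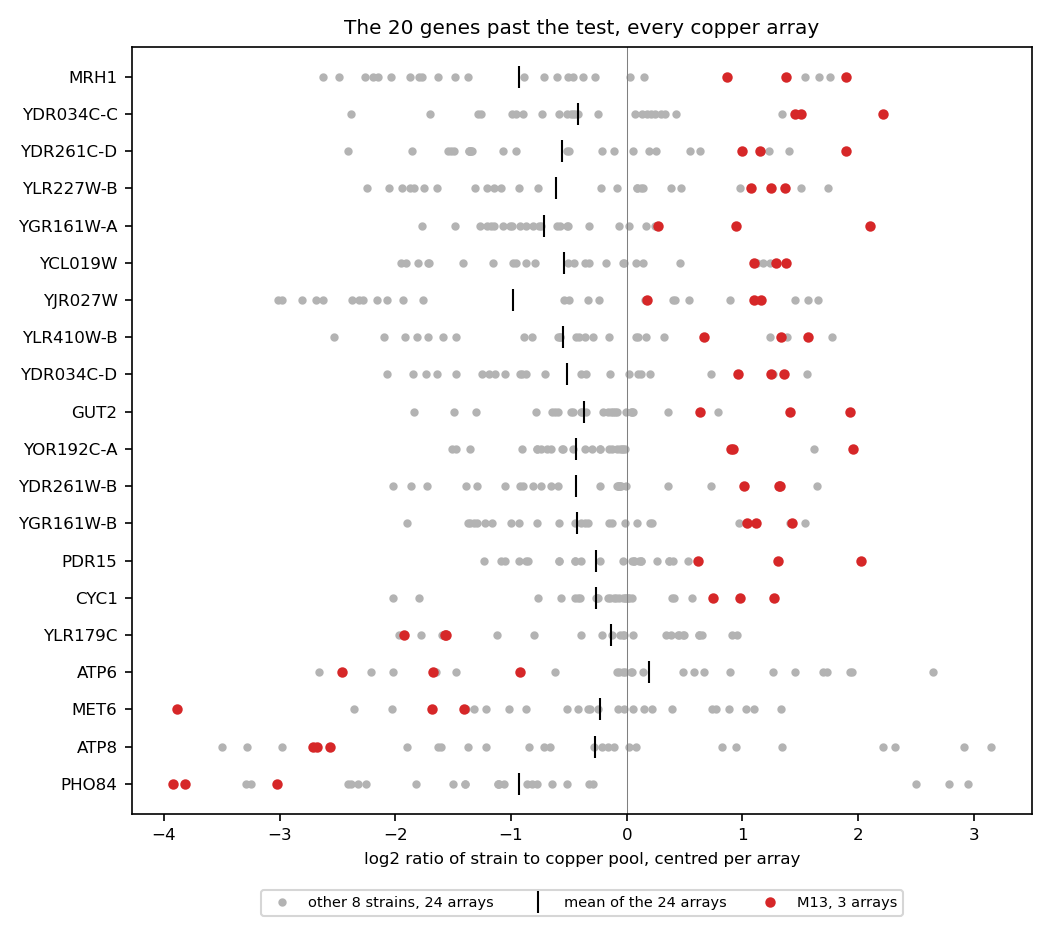
Log2 ratio of strain to copper pool (horizontal axis) for the 20 genes past the test, ordered by their difference, on each of the 3 M13 arrays (red) and the 24 arrays of the other strains (grey), with the mean of the 24 as a bar. The 3 red points lie beyond all grey points for YDR034C-C, YGR161W-A, PDR15 and CYC1, and 3 grey points at the right of PHO84 lie above 2.

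PHO84 encodes the high-affinity phosphate transporter of the plasma membrane, a main target of the PHO pathway that answers phosphate shortage. Its log2 ratio in M13 was -3.82, -3.92 and -3.02, while the other 24 arrays ran from -3.29 to 2.95 with a median of -1.11. All 3 M13 arrays were low and 22 of the 24 others lay above all of them, so the groups overlapped slightly. M13 had the lowest mean of the 9 strains and S288C the highest. The difference was -2.65 ± 0.37 (SE, 3 and 24 arrays, limma adjusted p = 4.73e-05), and it was -1.95 in rich medium (adjusted p = 0.00272). Against single strains, PHO84 was lower in M13 than in M14, M22, S288C and YPS163, with differences from -2.44 to -6.33, and did not pass against M32, M34, M5 or M8.

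PHO84 was the 1 gene of 27 measured in the phosphate list that passed, where 0.362% of all genes did. SPL2, a small regulator that acts on low-affinity phosphate transport, had log2 ratios of -1.12, -1.04 and -0.97 in M13 and a difference of -1.0 ± 0.28 that did not pass (limma adjusted p = 0.142). VTC1, a subunit of the vacuolar polyphosphate synthase, differed by -0.82 and did not pass. In the other direction, PHO3, a constitutive acid phosphatase, had M13 arrays at 1.00, 0.71 and 0.78, all above the highest of the other 24 at 0.62, yet its difference of 1.00 ± 0.37 did not pass (adjusted p = 0.841). PHO5, the phosphate-repressible acid phosphatase, differed by 0.45 without passing. The list median was -0.11 against -0.01 over all genes.

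MRH1 encodes a membrane protein related to the Hsp30 heat shock protein. Its log2 ratios in M13 were 1.89, 0.87 and 1.38, and those of the other strains ran from -2.62 to 1.76 with a median of -1.13. M13 and S288C were high, and 21 of the 24 other arrays lay below all 3 M13 arrays. The difference was 2.31 ± 0.34 (SE, limma adjusted p = 5.63e-05), the largest rise of the comparison, and 1.84 in rich medium (adjusted p = 0.00149). It passed against M14, M22, M34, M5 and M8, with differences from 2.42 to 3.65, and was -0.27 against S288C without passing. Its paralog YRO2 had M13 arrays at 1.49, 0.58 and 1.03 and a difference of 1.25 ± 0.40 that did not pass in copper (adjusted p = 0.405), and it passed in rich medium at 1.82 (adjusted p = 0.0172). HSP30 itself differed by 0.26 and did not pass. YRO2, HSP30 and the genes next to called genes were chosen after their values were seen. On chromosome IV, 1 measured gene, LYS14, lies between MRH1 and the Ty frames YDR034C-D and YDR034C-C in the R64 gene order, and it differed by 0.01.

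YLR179C, a gene of unknown function related to the carboxypeptidase inhibitor gene TFS1, was low in M13. Its log2 ratios were -1.93, -1.56 and -1.57, against a range of -1.97 to 0.96 with a median of 0.02 in the other strains. M13 and S288C were alike at the low end, with strain means of -1.69 and -1.77, and YPS163 followed at -1.17. The difference from the mean of the other strains was -1.55 ± 0.25 (limma adjusted p = 3.08e-04), and it passed against M14, M22, M32, M34 and M8. In rich medium it was -1.40 (adjusted p = 0.00121). TFS1, its neighbour on chromosome XII, differed by -0.15 and did not pass.

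Of 81 measured Ty reading frames, 11 rose in M13 and 0 fell, where 0.272% of all genes rose and 0.0905% fell. The list was drawn from the R64 names of Ty genes, copies of the same element are near-identical, and their spots share hybridization, so the 11 frames are not 11 separate observations and single copies cannot be told apart. YDR034C-C had log2 ratios of 2.22, 1.46 and 1.50 in M13, all above the other 24 arrays, which ran from -2.38 to 1.34. Its difference was 2.15 ± 0.39 (limma adjusted p = 0.0021). YGR161W-A also lay above every other array, narrowly, with M13 at 2.10, 0.94 and 0.27 against a highest value of 0.26 elsewhere, and differed by 1.82 ± 0.33 (adjusted p = 0.0021). YOR192C-A had the smallest p of the list, with M13 at 1.96, 0.90 and 0.92 and a difference of 1.69 ± 0.29 (adjusted p = 8.56e-04), and 23 of the 24 other arrays lay below all 3. Without replicate 1 of M13 these 3 frames lay between 1.39 and 1.94 and none passed (adjusted p = 0.153, 0.286 and 0.153). The other 8 were YDR261C-D, YLR227W-B, YCL019W, YJR027W, YLR410W-B, YDR034C-D, YDR261W-B and YGR161W-B, with differences between 1.63 and 1.91 and adjusted p from 0.00538 to 0.0264. Frames listed next to these in the R64 gene order were not all high. Such frames can overlap and belong to the same element, so they are not separate loci. YLR227W-A differed by -0.59, YJR026W by -0.43, YDR261C-C by -0.12 and YDR261W-A by 0.38. YLR410W-A (1.54) and YCL020W (1.55) were high without passing, and YDR034C-C and YGR161W-A passed.

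The Ty frames did not move as one set. Their median difference was -0.21 against -0.01 over all genes, with 29 above 0 and 52 below. A group of 20 frames lay above 1, 1 frame lay between 0.5 and 1, and the other 60 lay at 0.5 or below with a median of -0.32. All 20 frames above 1 in copper were also above 1 in rich medium, where they ran from 1.05 to 2.61. Across the 81 frames the copper and rich differences had r = 0.92, which describes probes that share sequence and strains. Over the 20 high frames the median log2 ratio was 1.27, 1.31 and 1.14 on the M13 arrays, and S288C gave 1.11, 1.20 and 1.01. The other 7 strains had means between -1.22 and -0.20, so M13 and S288C lay at the top together, with M13 highest in 10 of these frames and S288C in the other 10. Over the 60 remaining frames M13 was at -0.40 ± 0.35 (SD, n = 3), and M34 and S288C, at 0.62 and 0.74, were the 2 highest. These groups of frames were formed from the M13 values and carry no test.

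**Figure D2:**
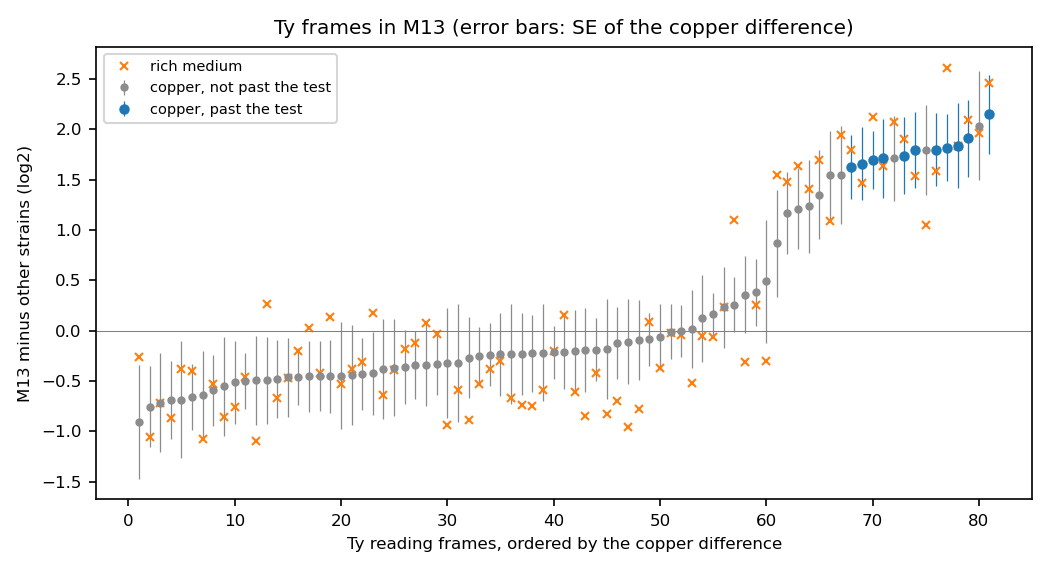
Difference of M13 from the mean of the other 8 strains (log2) for the 81 measured Ty reading frames, ordered by the copper difference: circles with SE bars show copper, blue where the frame passed the test, and crosses show rich medium. The right-hand 20 frames lie above 1 in copper and in rich medium, and most of the rest lie between -1 and 0.5.

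Nuclear genes for the respiratory chain and for ATP synthase lay above the other strains in M13 almost throughout the list in copper, though by small amounts and with 1 gene past the test. The 41 measured genes include 5 regulators, HAP1 to HAP5, and leave out complex II, succinate dehydrogenase, whose values are given below. Of the 41, 1 rose past the test and 0 fell, where 0.272% and 0.0905% of all genes did. The differences of 38 were above 0, and 16 were higher at an unadjusted p under 0.05, as were 76 of all 5524 genes (1.38%). The median difference was 0.46 against -0.01 over all genes, and was 0.45, 0.59 and 0.52 on the 3 M13 arrays taken against the mean of the other 24. M13 had the highest mean of the 9 strains in 33 of the 41 genes (80.5%), against 337 of all 5524 genes (6.10%). The list median per strain was 0.46 ± 0.07 (SD, n = 3 arrays) in M13 and 0.13 ± 0.32 in YPS163, the next highest, and the arrays of these 2 strains overlapped in range, with 0.42 on the highest YPS163 array and 0.39 on the lowest M13 array. M5 was lowest at -0.48 ± 0.20. In rich medium the list median on the M13 arrays was 0.71, -0.01 and 0.12 (0.27 ± 0.38, SD, n = 3), again the highest mean of the 9 strains but with a wide spread. The median difference there was 0.43, and M13 was highest in 20 of the 41 genes (48.8%), against 4.18% of all genes.

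CYC1, the main cytochrome c, carried the call. Its log2 ratios in M13 were 0.98, 1.27 and 0.75, all above the other arrays, which ran from -2.02 to 0.57 with a median of -0.13. S288C was the lowest strain at -1.53. The difference was 1.27 ± 0.30 (limma adjusted p = 0.0335), and it was 1.09 and no longer passed with S288C left out (adjusted p = 0.0687). The call was also lost without M14 (adjusted p = 0.0588), without M8 (0.0704) and without replicate 1, 2 or 3 of M13 (0.273, 0.787 and 0.14). Against single strains CYC1 passed against S288C alone (2.53), and the other 7 differences lay between 0.93 and 1.31.

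Complex III, which passes electrons to cytochrome c, had 8 measured subunits, all above 0 and all highest in M13, against 5 highest in rich medium. CYT1, its cytochrome c1, differed by 1.02 ± 0.25 (limma adjusted p = 0.0539) and RIP1, the Rieske iron-sulfur protein, by 0.84 ± 0.22 (adjusted p = 0.117), and the group median was 0.66. In cytochrome oxidase, 8 of 9 subunits were above 0 with a median of 0.58, led by COX5A (0.83) and COX12 (0.77). COX5B, the isoform of COX5A known for expression under low oxygen, was the exception at -0.35. The 14 ATP synthase genes all lay above 0, between 0.29 and 0.77. None of these genes passed. With spot position removed by the running median, where 0.815% of all genes passed, 5 genes of the list passed: CYC1, CYT1, RIP1, COX5A and COX12.

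Among the regulators, HAP4, the activating subunit of the HAP complex, differed by 0.68 ± 0.28 and did not pass. HAP1, the heme-responsive activator of CYC1, was lowest in M13 of the 9 strains, at -0.36 ± 0.23, without passing. SDH2, the iron-sulfur subunit of succinate dehydrogenase, differed by 0.88 ± 0.26 (adjusted p = 0.262). It had the largest difference of the 4 measured genes of this complex, complex II, whose median was 0.22 and lowest value -0.06. M13 was the highest of the 9 strains in 1 of these 4. FRD1, the soluble fumarate reductase, which runs the reverse reaction, differed by -0.89 ± 0.26 (adjusted p = 0.238) and was lowest in M13. The 65 mitochondrial ribosomal proteins had a median of 0.22 with 55 above 0 and none past the test. M13 was highest of 9 in 16 of them (24.6%), to be read beside the share of all genes given above for the respiratory list. MRPL35 of this list lay above all other arrays on all 3 M13 arrays and differed by 0.44 without passing.

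**Figure D3:**
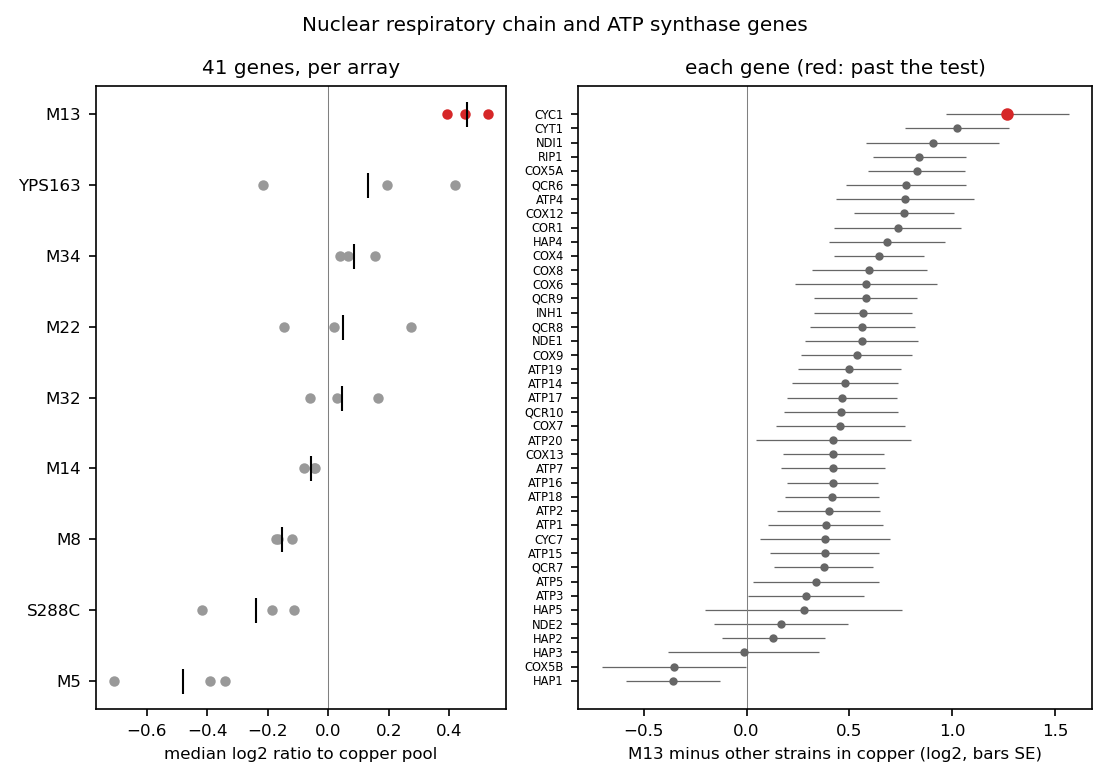
Left, median log2 ratio to the copper pool over 41 nuclear respiratory chain and ATP synthase genes on each of the 3 copper arrays per strain (points), with the strain mean as a bar; right, the difference of M13 from the mean of the other strains for each gene with its SE. M13 arrays lie at 0.39, 0.45 and 0.53, and CYC1, in red, is the gene past the test.

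The mitochondrial genome gave a different picture. Of 19 measured mitochondrial genes, 0 rose and 2 fell, where 0.272% and 0.0905% of all genes did. These were ATP8 and ATP6, adjacent genes for subunits of the membrane part of ATP synthase. ATP8 had log2 ratios of -2.67, -2.56 and -2.71 in M13, with -3.50 to 3.15 in the others. M34 was lower than M13 and YPS163 highest, and the groups overlapped. The difference was -2.37 ± 0.48 (limma adjusted p = 0.00596), and its call was lost with replicate 1, 2 or 3 of M13 left out (adjusted p = 0.273, 0.0705 and 0.0601) and with YPS163 left out (0.0764). ATP6 was at -1.67, -2.46 and -0.92, and the other arrays ran from -2.66 to 2.65. Its difference of -1.88 ± 0.46 (adjusted p = 0.0476) was close to the threshold, passed under 13 of 25 settings and was -1.41 without replicate 1 of M13 (adjusted p = 0.999). COB, encoding cytochrome b, differed by -1.26 (adjusted p = 0.262), whereas OLI1, a further ATP synthase subunit, was at 0.43 in copper and passed higher in rich medium at 1.39 (adjusted p = 0.0468). The list median was -0.02, and intron-encoded frames ranged from -2.03 (AI1) to 1.33 (SCEI), neither of which passed.

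GUT2 encodes the mitochondrial glycerol-3-phosphate dehydrogenase, which feeds electrons from glycerol phosphate into the respiratory chain. Its log2 ratios in M13 were 1.93, 1.41 and 0.63, and the other arrays ran from -1.84 to 0.79 with a median of -0.28. M13 was the highest strain, and 23 of the 24 other arrays lay below all 3. The difference was 1.70 ± 0.36 (limma adjusted p = 0.0117), and it lost its call without replicate 1 of M13 (1.34, adjusted p = 0.753) or replicate 2 (1.67, adjusted p = 0.219). The 8 differences against single strains lay between 1.38 and 1.98, of which none passed. In rich medium it was 1.03 and did not pass (adjusted p = 0.787). GUT1, the glycerol kinase, differed by -0.06.

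PDR15 encodes a plasma membrane transporter of the ATP-binding cassette family, a paralog of the drug pump PDR5. Its log2 ratios in M13 were 2.03, 1.31 and 0.62, all above the other 24 arrays, which ran from -1.23 to 0.53. M13 was the highest strain. The difference was 1.58 ± 0.31 (limma adjusted p = 0.00582), and 1.34 in rich medium (adjusted p = 0.0334). Without replicate 1 of M13 it was 1.25 and without replicate 2 it was 1.56, and neither passed (adjusted p = 0.424 and 0.102). PDR5 differed by 0.07 and PDR10 by -0.14. No other of the 21 measured genes for multidrug resistance passed, where 0.362% of all genes did. Across all genes, the M13 arrays lay wholly above or below the other 24 in 11 genes (0.199%), 8 above and 3 below, and 4 of the 20 called genes were among them.

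**Figure D4:**
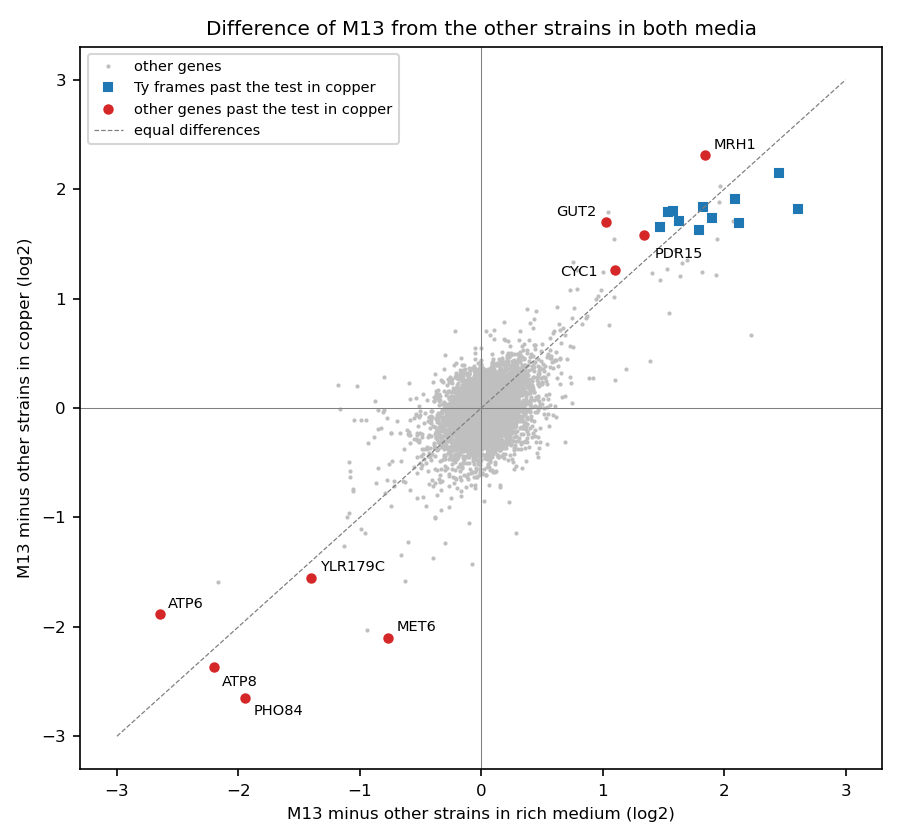
Difference of M13 from the mean of the other 8 strains in rich medium (horizontal axis) and in copper (vertical axis), both log2, for all 5524 genes, with the Ty frames past the copper test as blue squares and the other genes past it in red. Genes past the copper test lie on the same side of 0 in both media. MET6 lies farthest from the dashed line of equal differences, at -0.77 in rich medium and -2.10 in copper. ATP6, at -2.65 in rich medium and -1.88 in copper, PHO84 and GUT2 are among others off the line.

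MET6, the methionine synthase of the last step of methionine synthesis, was low in M13 in copper, but 1 array set much of the value. Its log2 ratios were -3.89, -1.68 and -1.40, and the other arrays ran from -2.36 to 1.33 with a median of -0.16. The difference was -2.10 ± 0.42 (limma adjusted p = 0.00595), and without replicate 1 of M13 it was -1.39 and no longer passed (adjusted p = 0.999). It passed against M14 and M22. In rich medium it was -0.77 and did not pass. The difference between the media, -1.33 ± 0.60, had an unadjusted p of 0.0307 and did not pass.

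Most other genes of sulfate assimilation and methionine lay in the same direction. Of 36 measured, 0 rose and 1 fell, where 0.272% and 0.0905% of all genes did. The differences of 32 were below 0, and 5 were lower at an unadjusted p under 0.05, as were 79 of all 5524 genes (1.43%). The list median was -0.31 against -0.01 over all genes, and -0.12 in rich medium. MET17, which joins sulfide to acetylhomoserine, differed by -1.59 ± 0.48 (adjusted p = 0.288) with M13 arrays at -3.41, -1.71 and -0.91. MET10, a sulfite reductase subunit, differed by -1.24 (adjusted p = 0.185), MET3, the ATP sulfurylase, by -1.05 and MUP1, the methionine permease, by -0.79. M13 was the lowest of the 9 strains in 10 of the 36 genes (27.8%), against 390 of all genes (7.06%). By list median, however, YPS163 was lower than M13, at -0.38 ± 0.10 (SD, n = 3) against -0.34 ± 0.17, a gap smaller than the spread, while M22 and M14 were the highest.

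No copper gene passed the test between M13 and the other strains. Of 17 measured genes for copper homeostasis, 1 was lower at an unadjusted p under 0.05, as were 1.43% of all genes. The list median was -0.07. CUP1-1, a copy of metallothionein, had log2 ratios of -2.18, -0.44 and -0.88 in M13, inside the range of -3.08 to 1.52 of the others. Its near-identical copy CUP1-2 was at -3.07, -0.39 and -1.03, inside -3.17 to 1.81, and the copies share hybridization. Both were lowest on M13 replicate 1. CUP1-1 differed by -0.86 ± 0.57 and CUP1-2 by -1.14 ± 0.60, or by -0.51 and -0.54 without that replicate. In rich medium the differences were 0.23 and 0.28, and the difference between media was -1.09 ± 0.81 for CUP1-1 and -1.42 ± 0.85 for CUP1-2, neither past the test. The surface reductase FRE1 differed by -0.68 ± 0.29, and CRS5, the second metallothionein, and SOD1, the copper-zinc superoxide dismutase, by 0.13 and 0.10. CTR1 was not among the genes analysed here.

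Iron uptake genes had 0 of 28 past the test, where 0.362% of all genes passed. Their median was -0.12, which was 0.03 for values that were not centred, where the median of all genes was 0.14. M13 was lowest of the 9 strains in 8 of the 28, to be read beside the share of all genes given above for the sulfur list. SIT1, a siderophore transporter, differed by -1.37 ± 0.37 (limma adjusted p = 0.121), with M13 arrays at -1.95, -2.14 and -0.46, and FET3, the multicopper oxidase of iron uptake, by -0.96.

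Of the remaining named genes none passed. YHB1, the flavohemoglobin that detoxifies nitric oxide, was highest in M13 with arrays at 1.19, 1.24 and 0.20, against -5.80 to 1.03 in the others, and differed by 1.88 ± 0.71 (limma adjusted p = 0.841). The glucose transporter genes HXT4 (1.34) and HXT1 (1.24) were highest in M13 and were among 5 of 24 hexose transport genes higher at an unadjusted p under 0.05, against 1.38% of all genes. HXT3, HXT6 and HXT7 were the others. Genes of this family may share hybridization, so the 5 are not separate observations. PTR2, the peptide transporter, was lowest in M13 at -1.14 ± 0.30 (adjusted p = 0.113). HSP12, a small heat shock gene, was at -3.67, -1.69 and -0.92 in M13, again lowest on replicate 1, and differed by -1.42 ± 0.74. YGR201C, a gene of unknown function, differed by -1.59 ± 0.62. HO, STE2 and STE3, of mating type switching and pheromone reception, differed by -0.30, -0.21 and -0.24. The zinc, heat shock, glycolysis, ergosterol, ribosome and proteasome lists had 0 genes past the test, with medians between -0.20 and 0.07.

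**Figure D5:**
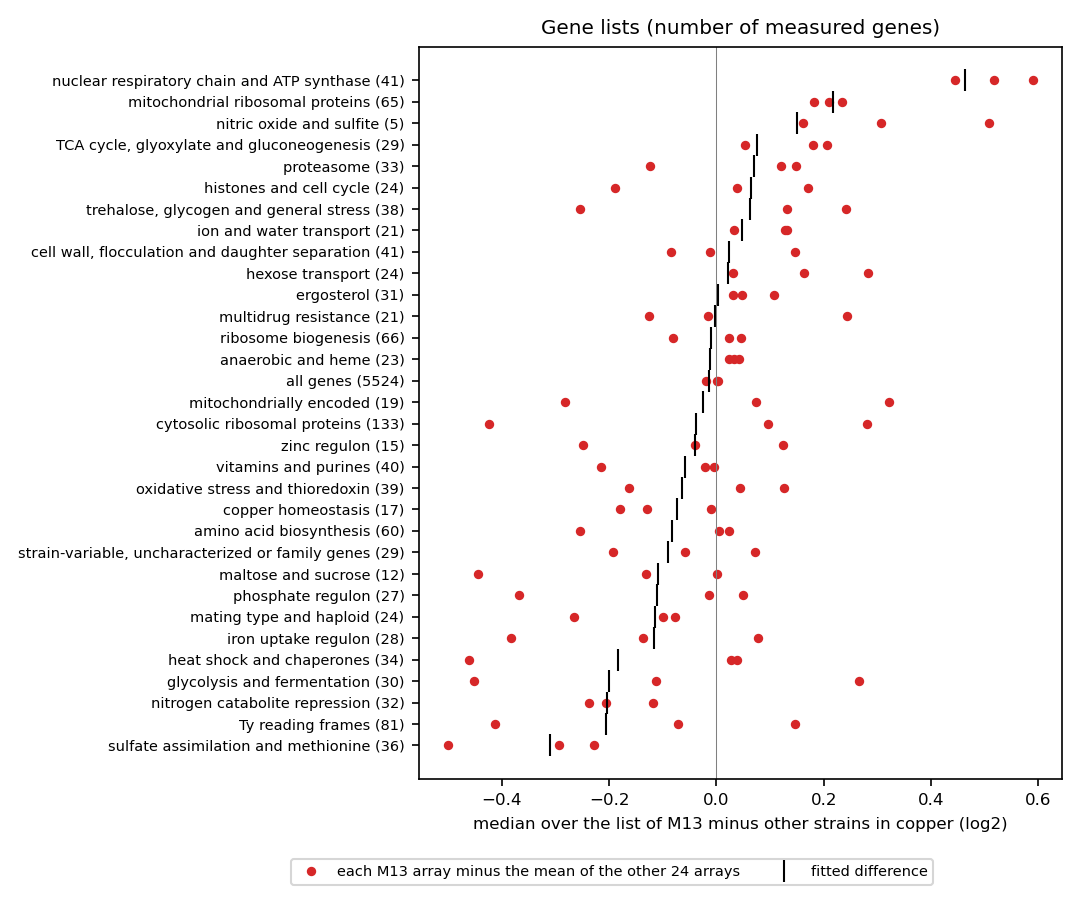
Median over each gene list of the difference of M13 from the other strains in copper (log2): bars show the fitted difference and points each M13 array minus the mean of the other 24 arrays. The 41 nuclear respiratory genes lie highest, with all 3 arrays right of 0.4, and sulfate assimilation and methionine lowest at -0.31.

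The genes called in copper differed in the same direction in rich medium. There 19 genes (0.344%) passed, 15 higher and 4 lower, and 15 genes passed in both media with the same sign, which is 75.0% of the copper calls and 78.9% of the rich calls. All 20 genes called in copper had the same sign in rich medium, against 60.5% of all genes, and 19 of them had an unadjusted p under 0.05 there. The copper and rich arrays have no sample in common, but use pools of the same strains. The tests in the 2 media also share the spread of each gene and its channel effect, so they are not independent. The 5 genes past the test in copper and not in rich medium were MET6, GUT2, CYC1, YJR027W and YDR261W-B, and the 4 past it in rich medium and not in copper were OLI1, YRO2, YNL054W-B and ARG1. Replicate numbers paired the rich arrays, except replicate 1 of M13 once the channel effect was removed. It then had r = 0.20 with other strains' replicate 1 and 0.28 with their replicate 3. With the replicate as a block, 26 genes passed in rich medium, among them CYC1 (limma adjusted p = 0.0119), YJR027W (0.00508) and YDR261W-B (0.0456). Of the 20 copper calls, 18 passed in rich medium in that fit, all but MET6 and GUT2. ARG1, an enzyme of arginine synthesis, was at 2.22 in rich medium and 0.67 in copper. In the test of the difference itself, 0 genes passed in limma and 17 had an unadjusted p under 0.05, ARG1 and MET6 among them, so no gene was shown to set M13 apart by another amount in copper than in rich medium.

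Against single strains in copper, M13 differed in 22 genes from YPS163 (0.398%), 21 from M14 (0.380%), 19 from M8 (0.344%), 18 from M22 (0.326%), 15 from S288C (0.272%), 5 from M32 (0.0905%), 3 from M34 (0.0543%) and 1 from M5 (0.0181%). Ty frames made up 14 of the calls against M8 and 12 of those against M14, all higher in M13, and 1 of those against S288C, lower in M13. No gene passed with the same sign against all 8 strains in limma, where 7 did at an unadjusted p under 0.05. MRH1, YLR179C and YOR192C-A passed against 5 strains, the most of any gene. Of the 20 called genes, 10 had the same sign in all 8 pairs.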

How the data were processed

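Per the labels' protocols, RNA was labelled with Cy3 or Cy5 and arrays were read with GenePix software. The deposited values were log2 ratios of the 2 channels for 6144 rows, without centring or scaling: array medians ran from -0.77 to 1.16. Any normalization by the authors is not given in the sources used here. Names from the platform table, matched to R64, gave 5524 genes after rows of 17 genes were averaged, and 603 rows without a listed gene were left out. Arrays were centred on their median and turned to strain over pool by channel. Fits used limma 3.58.1 in R 4.3.3, with Python 3.11.15 for tables. In simulated data with 200 changed genes of 5524, the copper comparison recovered 52.5% at a log2 change of 1 and 97.0% at 2. Recovery depends on the number of changed genes, which is not known for the real data, so these shares may be too high here.

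Named genes were the 15 highest and 15 lowest past the test, filled to 10 a direction by p, the gene of smallest p or every called gene in each of 31 lists, all Ty frames, and a set of copper, sulfur, stress and mating genes. Any other gene was picked with its values in view. The members and lists were chosen with earlier results of these data known. Alternatives changed centring, scaling, channel effect, spot position, replicate block and samples. Replicate numbers paired the arrays in rich medium, not in copper, by the correlation of deviations from group means of same-numbered arrays. In rich medium these were 0.62, 0.77 and 0.63 for M13, or 0.20, 0.72 and 0.70 with the channel effect removed. With that effect removed, replicate 1 of M13 correlated better with other strains' replicate 3 (0.28). Promoter sequences were not used here.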

Additional observations from a re-analysis of the deposited data

Results flagged for a closer look

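Among the 603 array rows with no listed gene, which enter none of the comparisons above, 2 differed between M13 and the other strains in copper. Array row 5038 had log2 ratios of 1.28, 1.30 and 1.23 in M13, all above the other 24 arrays, whose highest value was 0.88, and differed by 1.70 (limma adjusted p = 0.00537). Array row 2677 was at 1.24, 1.42 and 0.53 in M13 against a highest value of 1.37 elsewhere, and differed by 1.48 (limma adjusted p = 0.0485). What these rows measure is not given in the sources used here.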

How the results depend on the processing

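The copper count of 20 genes (15 higher, 5 lower) became 51 (32 and 19) with arrays scaled to equal spread, 45 (31 and 14) with a running median over spots subtracted, 39 (29 and 10) with centring within 16 blocks and 38 (27 and 11) with the running median and without M13 replicate 3, an alternative chosen after seeing the data. With copper arrays alone 29 genes passed, of which 10 were lower. All 20 genes were among the 45 and 18 of them among the 38. Leaving out 1 replicate of M13 gave 4 to 14 genes (2 to 9 higher, 2 to 5 lower), and leaving out 1 replicate of every strain gave 0 to 13 (0 to 9 higher, 0 to 4 lower). In rich medium these gave 3 to 17 against 19, where the running median gave 43 and centring within blocks 36. The lowest copper count was without replicate 1 of every strain. With the running median, with and without M13 replicate 3, 1 gene, PDR15, passed against all 8 strains. The test of the difference between media gave 0 genes in every setting that could fit it. Leaving out 1 other strain gave 14 to 25 genes in copper.

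Replicate numbers did not pair the copper arrays: deviations from group means of same-numbered arrays correlated at 0.53, 0.32 and 0.00 for M13 (-0.05, 0.13 and -0.30 with the channel effect removed), and with that effect kept replicate 3 of M13 correlated better with other strains' replicate 2. The replicate block gave 25 genes in copper (19 higher, 6 lower) and 26 in rich medium.

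All 20 genes kept their sign in each of 25 settings other than the turned sign. PHO84, MRH1 and YLR179C passed in 24, failing without replicate 1 of every strain (adjusted p = 0.228, 0.119 and 0.119). The other 17 passed in 13 (ATP6) to 23 (YDR034C-C). The median of the 41 respiratory genes stayed above that of all genes in each setting, from 0.41 to 0.61, and that of the 36 sulfur genes below it, from -0.41 to -0.16. Without centring the median over all genes was 0.14 in place of -0.01. Signal over background is not known for these ratios, so dim spots were not filtered.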
